A study of Caenorhabditis elegans with 16 samples.

Results

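RNAseq profiles of hlh-30(lf) worms that were starved and then refed with CeMM for 15 hours were compared with those of hlh-30(lf) worms that were starved and not refed. The samples were taken by their labels alone, 2 refed and 2 starved of the 16 in the study, and no measured value entered the choice. All worms were Caenorhabditis elegans larvae of the first stage (L1), harvested whole and in bulk. The hlh-30(lf) worms carry tm1978, a deletion that removes exons of hlh-30, and the labels call them only "mutant". Eggs from bleached adults hatched in M9, a salt buffer without food, where the larvae were starved for 33 hours. The refed worms then spent 15 hours in CeMM (C. elegans maintenance medium), a medium made of defined nutrients without bacteria. The other 12 samples, 2 per group, were hlh-30(lf) worms after 3 hours of CeMM, hlh-30(lf) L1 worms fed on bacteria, and wild-type (N2) worms that were fed, starved, or given CeMM for 3 or 15 hours. No worms were starved for a further 15 hours, so that the effect of the medium and that of the added time cannot be told apart.

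HLH-30 is the worm ortholog of mammalian TFEB, a basic helix-loop-helix transcription factor that is held in the cytoplasm when nutrients keep the kinase TOR active and that moves to the nucleus in starvation, where it activates genes of lysosomes, autophagy and fat breakdown. Lysosomes digest what the cell takes up or discards, and their acidity comes from the vacuolar H+-ATPase (V-ATPase), a rotary proton pump that also anchors part of the machinery by which amino acids activate TOR. L1 larvae that hatch without food stop developing, live on their stores, and start to grow when food arrives. The comparison asks which transcripts change when worms that lack HLH-30 receive simple nutrients.

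The total count was 31076031 and 36150606 in the refed samples and 31971386 and 36552665 in the starved samples, within a range of 29205691 to 40955529 over the 16. Levels are given as CPM (a gene's counts scaled to the same total in each sample), at which 3 counts equal between 0.0821 and 0.0965 CPM in these 4 samples; such floors cover counting error only. Transcripts of hlh-30 itself (IV:4014799-4028127 in WBcel235) stood at 781 and 749 CPM in the starved samples and at 405 and 394 CPM in the refed samples, so that the groups did not overlap. The log2 fold change was -0.95 ± 0.10 (SE, adjusted p = 1.36e-08 by edgeR's quasi-likelihood test). Fed hlh-30(lf) worms had 400 CPM on average. Wild-type worms changed by -0.07, and the difference between the genotypes' changes, the interaction, was -0.88 (adjusted p = 1.77e-05). Reads were counted over all exons of the gene, so these counts do not test whether the deletion is present.

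Of 30177 genes tested, 4722 were higher in the refed than in the starved worms and 4570 were lower at an adjusted p of at most 0.05, which is 15.6% and 15.1%. In bulk samples, fewer cells of a type and less RNA per cell cannot be told apart, here and in all that follows. At least 2-fold changes were found for 2071 genes that rose (6.86%) and 2077 that fell (6.88%), at least 4-fold changes for 899 and 816, and at least 16-fold changes for 145 and 159. Both refed samples lay above both starved samples for 4717 of the 4722 genes, and below for 4561 of the 4570. Overlap was counted among called genes only. The test used the same 4 samples, so these counts are no separate support. Among the 8992 genes whose higher group averaged 10 CPM or more, 2906 rose and 3031 fell, with a median log2 fold change of 0.02 and a median absolute change of 0.45.

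The replicates were about equally spread, with an SD of the log2 difference between the samples of a group of 0.338 in the refed and 0.355 in the starved worms. Starved sample 1 exceeded starved sample 2 by a median log2 of 0.26 over the shortest of 5 classes of genes by transcript length (median 694 nucleotides), and the difference was -0.23 over the longest (3558 nucleotides). The refed samples showed no such slope, with medians between -0.03 and -0.02 in each class. From starved to refed, the shortest class rose by a median of 0.21, whereas the other classes lay between -0.0006 and 0.04. Counts with this trend removed, a setting chosen after seeing the data, are given below for some of the lists. Ribosomal RNA took 1.18% and 1.29% of counts in the refed and 4.79% and 3.29% in the starved samples.

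**Figure D1:**
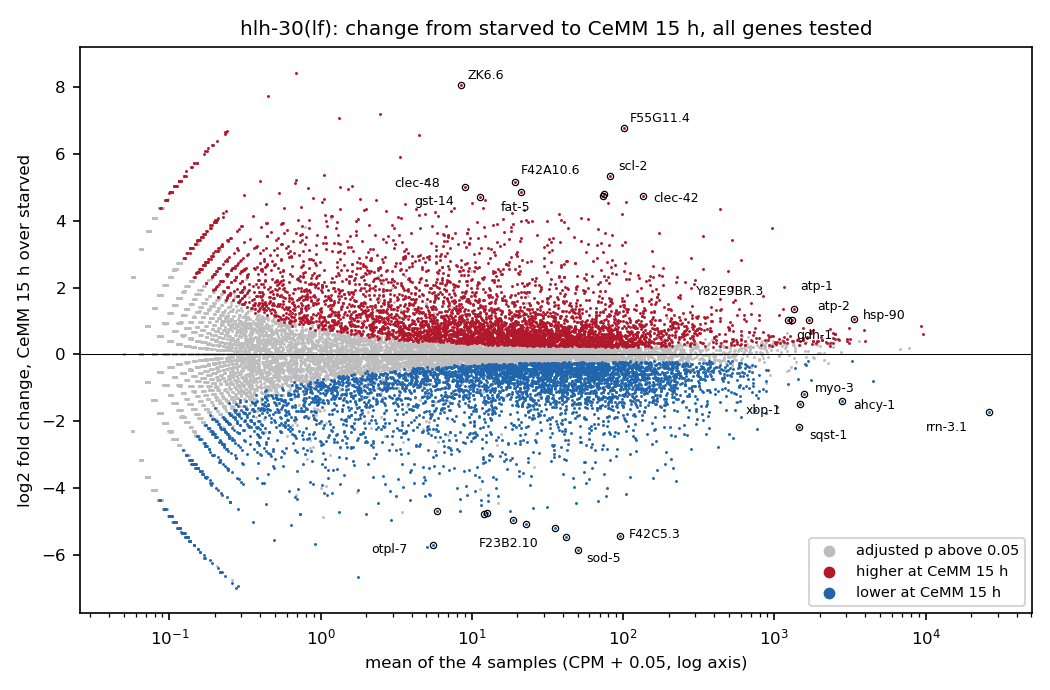
Log2 fold change from starved to CeMM 15 h in hlh-30(lf) worms (vertical axis) against the mean level of the 4 samples in CPM (horizontal axis, log scale, with a small constant added), 1 point per gene. Red points are the 4722 genes called higher, blue points the 4570 called lower and grey points the rest; open circles mark the genes with the largest changes and the most abundant genes that changed at least 2-fold. The calls are spread over the whole range of levels, and the rises and falls are about equal in number.

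The largest rises among genes of at least 10 CPM were those of ZK6.6, F55G11.4, scl-2, F42A10.6, clec-48, fat-5, acds-10, clec-42, cpr-1 and gst-14. F55G11.4, a CUB-like gene of the kind known from pathogen responses, was at 2.03 and 1.59 CPM in the starved and at 226 and 174 CPM in the refed samples, a log2 fold change of 6.78 ± 0.18. The gene scl-2, which encodes a secreted SCP-domain protein, went from 3.91 and 3.86 to 161 and 159 CPM. The acyl-CoA dehydrogenase gene acds-10 went from 5.10 and 5.01 to 149 and 139 CPM. In each of these genes the 2 samples of a group lay close together and far from the other group. The C-type lectin gene clec-42 rose from 8.41 and 10.64 to 257 and 265 CPM, and its relative clec-48 from 0.719 and 0.356 to 18.4 and 16.21 CPM. The cathepsin B-like protease gene cpr-1 rose from 5.91 and 4.76 to 164 and 122 CPM. The glutathione S-transferase gene gst-14 rose from 0.907 and 0.739 to 21.4 and 22.5 CPM. These secreted, enzyme and lectin genes thus moved from between 0.356 and 10.64 CPM in the starved samples to between 16.21 and 265 CPM in the refed samples. F42A10.6 rose from 1.53 and 0.575 to 38.3 and 36.3 CPM. ZK6.6 was at 0.0626 and 0.0547 CPM in the starved samples, at most 2 counts, and at 16 and 17.8 CPM in the refed samples (adjusted p = 3.42e-07). Fed hlh-30(lf) worms had more F42A10.6 (68.3 CPM) and cpr-1 (212 CPM) than refed worms, and less scl-2 (7.28 CPM) and F55G11.4 (15.6 CPM); the comparison with fed worms gave log2 differences of -0.98, -0.68, 4.37 and 3.57 with adjusted p of 0.0104, 0.0168, 7.2e-13 and 9.1e-14.

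The largest falls were those of sod-5, otpl-7, F23B2.10, F42C5.3, sir-2.3, chil-27, F41C3.7, ant-1.2, nhx-6 and F09C6.13. The superoxide dismutase gene sod-5, known to be raised by the starvation-responsive factor DAF-16, fell from 109 and 88.2 CPM to 1.32 and 2.07 CPM, a log2 fold change of -5.86 ± 0.20. The mitochondrial sirtuin gene sir-2.3 fell from 71.8 and 66.1 to 1.90 and 1.91 CPM. The chitinase-like gene chil-27, a marker of the response to oomycetes, fell from 45.4 and 42.4 to 1.09 and 1.52 CPM. Each group of 2 samples again lay far from the other, and fed hlh-30(lf) worms had between 0.0953 and 1.53 CPM of the 10 transcripts on average. The adenine nucleotide translocator gene ant-1.2 fell from 23.4 and 22.6 to 0.644 and 1.02 CPM, and the sodium/proton exchanger gene nhx-6 from 22.6 and 26.2 to 0.837 and 0.968 CPM. The otopetrin-like gene otpl-7 fell from 10.3 and 11.41 CPM to 0 and 0.387 CPM. F42C5.3, at 204 and 171 CPM in the starved samples, was the most abundant of the group, and it went to 3.7 and 4.98 CPM. Starved wild-type worms had between 0.0840 and 3.32 CPM of these 10 transcripts on average, and the interaction passed the test with a negative sign for each, with values between -2.41 for sod-5 and -6.81 for otpl-7.

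**Figure D2:**
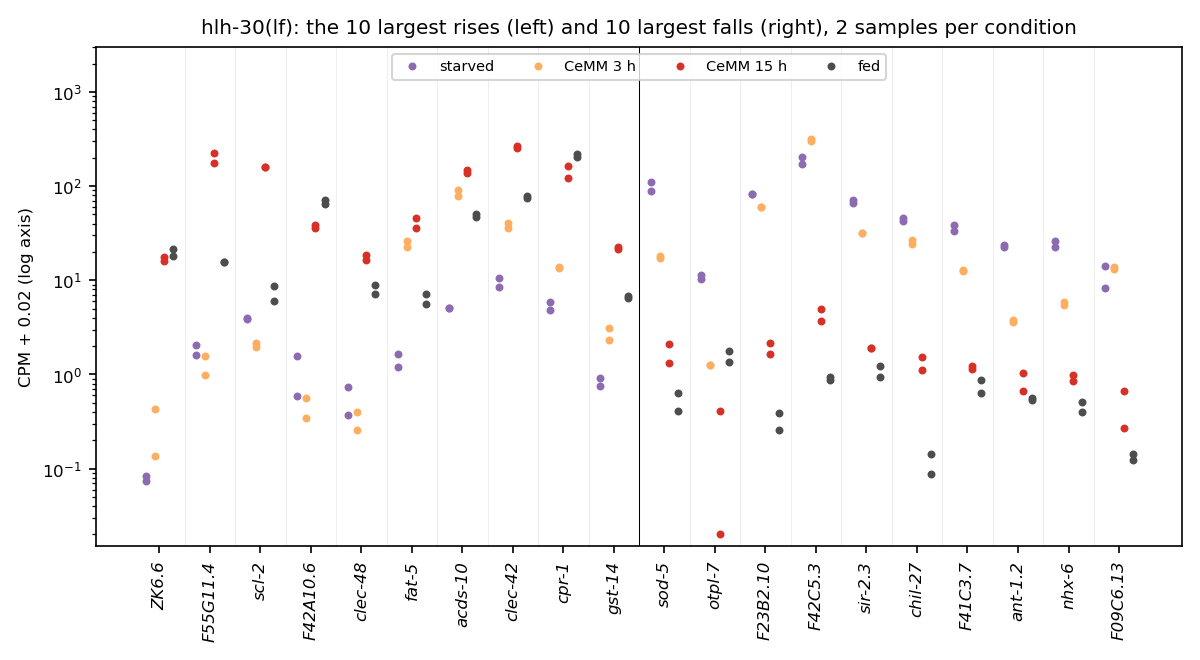
Levels of the 10 genes with the largest rises and the 10 with the largest falls in hlh-30(lf) worms, in CPM on a log axis with a small constant added, with 1 point per sample of the starved, CeMM 3 h, CeMM 15 h and fed groups. The genes were chosen for having no overlap, so in each both refed samples lie on the same side of both starved samples. An example is sod-5, at 109 and 88.2 CPM starved and 1.32 and 2.07 CPM refed.

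Among the most abundant genes that changed at least 2-fold, 3 of the 5 that rose encode parts of the mitochondrial ATP synthase. Its alpha subunit gene atp-1 rose from 760 and 737 to 2033 and 1854 CPM, its beta subunit gene atp-2 from 1109 and 1119 to 2354 and 2202 CPM, and its subunit c gene Y82E9BR.3 from 921 and 794 to 1812 and 1720 CPM. The chaperone gene hsp-90 rose from 2199 and 2174 to 4566 and 4617 CPM, and gdh-1, which encodes glutamate dehydrogenase, from 797 and 821 to 1654 and 1657 CPM. These 5 log2 fold changes lay between 1.02 and 1.36. The most abundant genes that fell at least 2-fold were rrn-3.1, ahcy-1, sqst-1, myo-3 and xbp-1. S-adenosylhomocysteine hydrolase (ahcy-1), an enzyme of the methionine cycle, fell from 4146 and 3992 to 1593 and 1546 CPM, below the 3724 CPM of fed worms. The transcript of xbp-1, a transcription factor of the unfolded protein response, fell from 2240 and 2117 to 779 and 799 CPM. The large ribosomal RNA gene rrn-3.1 was at 47612 and 32649 CPM in the starved and 11661 and 12761 CPM in the refed samples; its adjusted p of 0.0372 rose to between 0.0527 and 0.169 when any of the 4 samples was left out and was 0.0515 with the replicate number as a block.

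The V-ATPase genes rose together. Of 21 subunit genes, 17 were higher in refed hlh-30(lf) worms and 1 was lower, against 15.6% and 15.1% of all genes, and the median log2 fold change was 1.1, against 0.00 over all genes. The summed level was 6402 and 6393 CPM in the starved samples, 8396 and 8442 CPM after 3 hours of CeMM, 12790 and 12670 CPM after 15 hours, against 13460 and 13650 CPM in the fed mutant samples. In the V1 sector, the cytosolic part that burns ATP, 8 of 9 genes rose, with a median of 1.21. The catalytic A subunit gene vha-13 rose from 616 and 660 to 1664 and 1633 CPM (1.35 ± 0.08, adjusted p = 7.71e-14). The B subunit gene vha-12 rose from 347 and 360 to 1071 and 1025 CPM, at 1.55 ± 0.08 the largest change of any subunit. The stalk subunit gene vha-8 (E) rose from 455 and 391 to 1010 and 969 CPM and vha-9 (F) from 123 and 99.0 to 292 and 279 CPM. The other V1 genes that rose, vha-10, vha-11, vha-14 and vha-15, which encode subunits G, C, D and H, had log2 fold changes of 1.22, 1.1, 1.13 and 0.71. The second H subunit gene, vha-18, was scarce, with 5.63 and 4.79 CPM in the starved and 4.47 and 4.84 CPM in the refed samples, and was not called (adjusted p = 0.469).

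In the V0 sector, which carries protons through the membrane, 9 of 12 genes rose and 1 fell, with a median of 0.88. The proteolipid genes vha-1, vha-2, vha-3 and vha-4, whose products form the rotating ring, had log2 fold changes of 0.70, 0.93, 1.43 and 1.27. Reads that fit more than 1 gene were not counted, so the levels of vha-2 and vha-3, whose proteins are nearly identical, are uncertain. The subunit d gene vha-16 rose from 469 and 438 to 759 and 737 CPM and the subunit e gene vha-17 from 184 and 145 to 301 and 293 CPM. The accessory subunit genes vha-19 and vha-20 rose from 296 and 360 to 797 and 886 CPM and from 225 and 227 to 489 and 506 CPM. The 4 genes for subunit a, the stator that differs between tissues and organelles, did not move together. The gene vha-6, known from the apical membrane of the intestine, rose from 260 and 294 to 592 and 597 CPM (1.08 ± 0.09, adjusted p = 7.29e-11). The gene unc-32, known from the nervous system, fell from 348 and 419 to 277 and 305 CPM (-0.42 ± 0.09, adjusted p = 0.000316). The gene vha-5, known from hypodermis and excretory cell, was at 483 and 624 CPM starved and 555 and 576 CPM refed, and vha-7 was at 39.8 and 54.6 CPM starved and 43.8 and 46.9 CPM refed, with overlapping groups in both. Without starved sample 2, vha-5 was called higher (0.21, adjusted p = 0.0471), and without starved sample 1, vha-7 was called lower (-0.28, adjusted p = 0.039). Per kilobase of transcript, the refed level ranged from 3.16 RPKM for vha-18 to 1781 RPKM for vha-2.

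**Figure D3:**
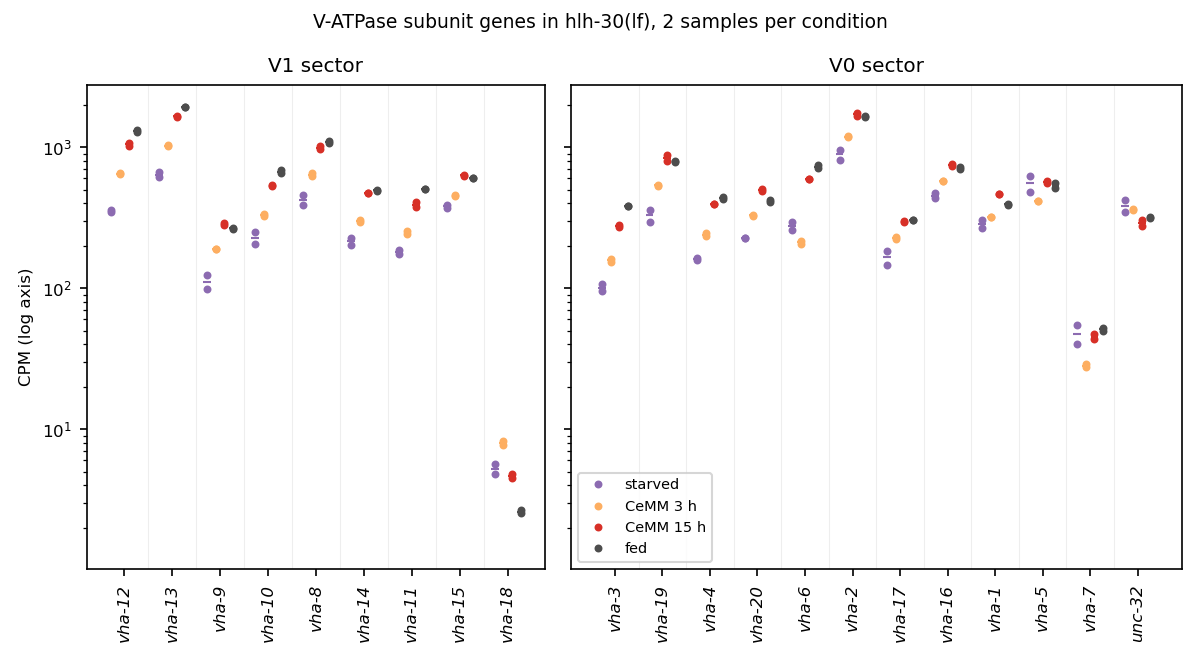
Level of each V-ATPase subunit gene in the samples of hlh-30(lf) worms, in CPM on a log axis, grouped into the V1 and V0 sectors, with 1 point per sample and a short line at the mean of each of the starved, CeMM 3 h, CeMM 15 h and fed groups. For 17 of the 21 genes both refed samples lie above both starved samples, and unc-32 lies below.

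Refed hlh-30(lf) worms had between -0.59 (vha-3) and 0.73 (vha-18) log2 more V-ATPase transcript than fed hlh-30(lf) worms, gene by gene, and subunits such as vha-2 (-0.05), vha-9 (0.00) and vha-19 (-0.02) differed little from fed. In wild-type worms, where 15.4% of all genes rose and 13.8% fell over the same 15 hours, 13 of the 21 subunit genes rose and 2 fell, with a median of 0.47, and the summed level went from 6405 and 6388 CPM to 7845 and 6619 CPM. The starved sums of the genotypes were thus nearly equal, and the sums after CeMM were not. Sums of CPM leave out the TMM factors that scale the samples in the fits. These were 0.9495 and 0.7995 in the refed wild-type samples and 1.051 and 1.065 in the refed hlh-30(lf) samples. A factor below 1 raises a sample's level in the fits, so the contrast of the sums overstates the difference. The sum of 7 intestine markers, of which vha-6 is itself a subunit gene, went from 3072 and 3426 to 1987 and 1771 CPM in wild type and from 1138 and 1124 to 2582 and 2522 CPM in hlh-30(lf) worms, and its part in the difference between the genotypes was not tested. The interaction was positive for 13 subunit genes and negative for 2, vha-5 (-0.77) and vha-7 (-0.92), against 10.4% positive and 12% negative of all genes tested. The largest positive interactions were those of vha-6 (1.86, adjusted p = 4.11e-12) and vha-3 (1.27, adjusted p = 1.4e-08). Those of vha-12 (0.18) and vha-10 (0.28) did not pass (adjusted p = 0.373 and 0.124). They passed with library sizes alone in place of TMM factors (0.0196 and 0.00557) and with the length trend removed (0.0439 and 0.00377). So did those of vha-1 and vha-19, with library sizes alone (0.0113 and 0.0141) and with the trend removed (0.0168 and 0.0102). Calls for 1 of the 13, vha-11, were lost without refed hlh-30(lf) sample 1 (adjusted p = 0.108) and without refed wild-type sample 2 (0.0705). The nuclear receptor gene nhr-31, known to control V-ATPase genes of the excretory cell, did not change in hlh-30(lf) worms beyond the test's threshold, with 263 and 272 CPM starved and 244 and 255 CPM refed (-0.12 ± 0.08, adjusted p = 0.294, and 0.0476 with DESeq2). The study singled out 16 genes, 11 of them subunit genes, as higher only in hlh-30(lf) worms and after 15 but not 3 hours of CeMM. In the fits here, 16 of 16 were higher in hlh-30(lf) worms at 15 hours, with a median of 1.17. At 3 hours 13 were higher in hlh-30(lf) worms, and at 15 hours 13 were higher in wild type. The group was chosen on these data and is no independent evidence.

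Markers of the intestine, the tissue with the most lysosomes in the worm, rose with the lysosomal genes: 6 of 7 rose and none fell, and their summed level more than doubled. In wild type 4 rose and 2 fell while their sum dropped, and 4 of the 7 had a positive and 1 a negative interaction (median 1.21). Among them act-5, the actin of the microvilli, rose from 177 and 120 to 875 and 814 CPM and the peptide transporter gene pept-1 from 47.9 and 52.7 to 225 and 242 CPM. The transcription factor gene elt-2, which specifies the intestine, was at 37.6 and 39.1 CPM starved and 39.0 and 39.4 CPM refed (log2 fold change 0.01). No marker of this list was at 0, and the call for the scarcer factor gene elt-7 was lost without refed sample 1 (adjusted p = 0.0629) or starved sample 2 (0.0786). The part of the intestine in the lysosomal and V-ATPase results, and in their differences between the genotypes, was not tested.

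Lysosomal enzymes rose in many but not all classes. Of 32 genes for lysosomal hydrolases and membrane proteins, 20 rose and 6 fell (median 0.63). The glucocerebrosidase gene gba-1 rose from 4.07 and 4.82 to 73.0 and 72.6 CPM, a log2 fold change of 4.01 ± 0.19. The acid alpha-glucosidase genes aagr-1 and aagr-2, whose products digest glycogen, rose from 10.7 and 14 to 67.1 and 59.2 CPM and from 21.1 and 20.1 to 151.5 and 144 CPM. Of 29 cathepsin genes, 13 rose and 4 fell (median 0.28). Besides cpr-1, cpr-5 rose from 29.8 and 30.9 to 175 and 172 CPM and cpr-9 from 13.1 and 7.09 to 197 and 178 CPM. The aspartyl protease gene asp-1 rose from 454 and 448 to 1985 and 1721 CPM in hlh-30(lf) worms; in wild-type worms it went from a mean of 10106 CPM starved to 2802 CPM, and the interaction was 3.68 (adjusted p = 1.06e-12).

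Of the 8 lysosomal acid lipase genes, 5 rose and none fell (median 1.29). The level of lipl-2 was 0.5 and 0.711 CPM in the starved and 4.96 and 4.37 CPM in the refed samples (2.90 ± 0.20, adjusted p = 3.18e-12), far below the 80.7 and 63.0 CPM that wild-type worms had on average when starved and refed. The level of lipl-5 rose from 13.6 and 13.9 to 33.6 and 30.5 CPM and that of lipl-7 from 12.76 and 12.7 to 34.4 and 32 CPM. The level of lipl-6 rose from 1.97 and 2.08 to 7.66 and 5.03 CPM, and that of lipl-1 from 0.407 and 0.410 to 5.86 and 1.66 CPM (adjusted p = 0.00571, and 0.135 when the compared groups were fitted alone). Wild-type worms went from a mean of 0.387 to 24.6 CPM of lipl-3, while hlh-30(lf) worms were at or under 0.0626 CPM starved and 0.0553 CPM refed, at most 2 counts per sample. No change of lipl-3 was detectable in hlh-30(lf) worms at this depth, and its interaction was the most negative of any named gene (-7.06, adjusted p = 0.0025), a fitted value that rests on these few counts. The interaction was positive for lipl-2, lipl-5, lipl-6 and lipl-7, negative for lipl-3 and not called for the other lipase genes.

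Autophagy genes fell as a rule: of 27, 14 fell and 2 rose (median -0.27), with 8 falling without refed sample 1 and 9 without refed sample 2. The p62 gene sqst-1, whose product is an autophagy receptor, fell from 2374 and 2400 to 543 and 529 CPM (-2.17 ± 0.08). The Atg8 homolog gene lgg-1 fell from 1045 and 841 to 264 and 256 CPM, atg-18, which encodes a WIPI protein, from 215 and 182 to 88.9 and 91.8 CPM, and epg-8 from 65.2 and 64.0 to 27.8 and 27.6 CPM. The 2 that rose, named after their values were seen, were epg-3 (0.60) and atg-9 (0.33); 1 rose without refed sample 2 and 1 without starved sample 1. After 3 hours of CeMM, where 7.71% of all genes rose and 8.71% fell against the same starved samples, 12 of the 27 were higher and 2 lower; epg-8 stood at 132 CPM on average and sqst-1 at 2030 CPM. Fed hlh-30(lf) worms had 182 CPM of sqst-1 and 204 CPM of lgg-1. In wild-type worms 1 autophagy gene rose and 13 fell over 15 hours, and the interaction was negative for 7 and positive for 5, with -1.65 for sqst-1 and -1.79 for lgg-1. Of 26 genes of TORC1 and of AMPK, the kinases that sense nutrients and energy, 8 rose and 8 fell: the AMPK gamma subunit gene aakg-4 fell from 66.5 and 76.4 to 18 and 17.8 CPM, the folliculin gene flcn-1 from 314 and 353 to 201 and 205 CPM, and the Ragulator gene lmtr-3 rose from 19.7 and 16.22 to 33.5 and 32.1 CPM.

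**Figure D4:**
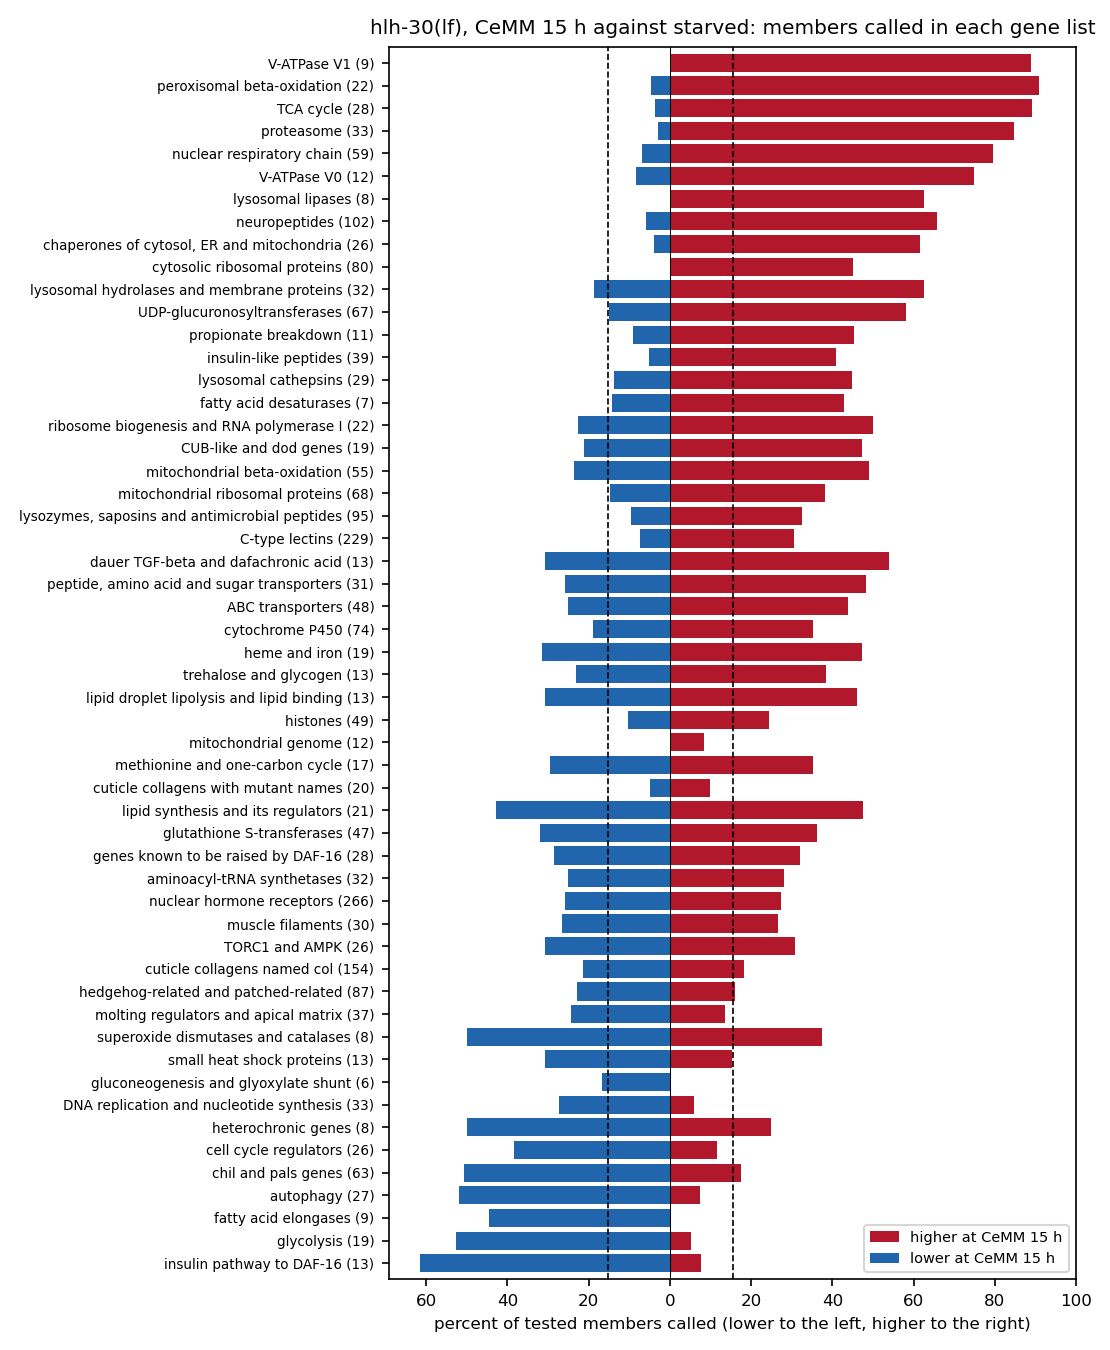
Share of the tested members of each gene list that were higher (red, to the right) or lower (blue, to the left) in refed than in starved hlh-30(lf) worms, in percent; the dashed lines mark the shares over all genes, 15.6% and 15.1%. The V-ATPase, peroxisomal beta-oxidation, TCA cycle, respiratory chain and proteasome lists lie farthest to the right, and autophagy, the insulin pathway, glycolysis and the chil and pals genes lean to the left. Genes at 10 CPM or more were called more often than all genes: of 8992, 2906 rose and 3031 fell.

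Genes of fat breakdown rose, most of all in the peroxisome. Of 22 genes for peroxisomal beta-oxidation and peroxisome assembly, 20 rose and 1 fell (median 2.38). The acyl-CoA oxidase gene acox-1.1, which encodes the entry enzyme of the pathway that also makes ascaroside pheromones, rose from 7.85 and 8.75 to 212 and 190 CPM (4.58 ± 0.11, adjusted p = 6.94e-21). The related genes acox-1.2, acox-1.4 and acox-3 rose by log2 fold changes of 4.28, 3.83 and 3.29, the last from 11.3 and 10.2 to 108 and 105 CPM. The gene that fell, prx-3, was named after its value was seen and went from 199 and 191 to 36 and 36.5 CPM. After 3 hours of CeMM, 18 of the list were already higher and 1 lower, and acox-1.1 was at 335 CPM; fed worms had 110 CPM. In wild-type worms 20 rose and none fell with a median of 0.95, and 15 of the genes had a positive interaction and 1 a negative one. The mitochondrial beta-oxidation list was mixed, with 27 of 55 genes higher and 13 lower (median 0.60). The carnitine palmitoyltransferase genes cpt-5 and cpt-6 rose from 1.66 and 1.48 to 25.07 and 20.0 CPM and from 2.78 and 2.38 to 28.3 and 25.28 CPM, the acyl-CoA synthetase gene acs-7 from 5.76 and 5.88 to 104 and 94.2 CPM, and the enoyl-CoA hydratase gene ech-7 fell from 309 and 302 to 27.9 and 27.5 CPM. Of 13 lipid droplet and lipid binding genes, 6 rose and 4 fell. The perilipin gene plin-1, whose product coats lipid droplets, was at 118.7 and 96.4 CPM starved, at 1687 CPM after 3 hours on average and at 386 and 328 CPM after 15 hours, and the adipose triglyceride lipase gene atgl-1 fell from 118.8 and 118 to 47.5 and 49.5 CPM.

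Genes of fatty acid desaturation and elongation did not rise as in wild-type worms. Among the 7 desaturase genes, which put double bonds into fatty acids, 3 rose and 1 fell in hlh-30(lf) worms, and 5 rose and 1 fell in wild type. The interaction was negative for 6. The summed level went from 2096 and 2077 to 4553 and 4314 CPM in wild type. In hlh-30(lf) worms it went from 2930 and 2749 to 2930 and 2946 CPM. The palmitoyl-CoA desaturase gene fat-5 rose from 1.63 and 1.18 to 45.9 and 36.2 CPM in hlh-30(lf) worms and from an average of 0.714 to 186 CPM in wild type (interaction -3.35). The stearoyl-CoA desaturase gene fat-6 fell from 351 and 352 to 72.7 and 59.5 CPM (-2.43 ± 0.18, adjusted p = 7.71e-07). The genes fat-1 and fat-4, whose products make polyunsaturated fatty acids, rose by 0.63 and 0.45 on the log2 scale, whereas fat-2 and fat-3, of the same pathway, were not called (adjusted p = 0.481 and 0.49); fat-2 was at 1677 and 1519 CPM starved and 1707 and 1769 CPM refed. The scarce fat-7 was at or below 0.225 CPM in each of the 4 samples.

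Of the 9 elongase genes, which lengthen fatty acids, none rose and 4 fell, in contrast to wild type, where 6 rose and none fell, and the interaction was negative for 7. The starved sums differed between the genotypes too. The summed level went from 510.5 and 448 to 918.5 and 848.9 CPM in wild type. In hlh-30(lf) worms it went from 1286 and 1193 to 634 and 605.6 CPM. The gene elo-1 fell from 707 and 635 to 336 and 313 CPM, elo-2 from 258 and 250 to 72.1 and 68.4 CPM, and elo-5, needed for branched fatty acids, from 131 and 118.7 to 26.6 and 22.5 CPM (-2.37 ± 0.29, interaction -4.44). The partner of elo-5 in branched-chain synthesis, elo-6, was at 53.9 and 52.7 CPM starved and 77.6 and 78.8 CPM refed; its call depended on the fit (adjusted p = 0.18, and 0.00206 when the compared groups were fitted alone). The gene elo-3 had a log2 fold change of -0.22 ± 0.08 (adjusted p = 0.0348), and the call was lost when any of 3 of the samples was left out (adjusted p between 0.0577 and 0.283), whereas elo-4 (-0.02), elo-7, elo-8 (-0.26) and elo-9 (0.13) were not called, elo-7 with at most 0.0821 CPM. The interaction of elo-4 (-1.44) was lost without starved wild-type sample 1 (adjusted p = 0.0561). Of 21 other lipid synthesis genes and their regulators, 10 rose and 9 fell; the ATP citrate lyase gene acly-2 rose from 10.9 and 12 to 60.6 and 50.7 CPM and pcyt-1, for the choline branch of phospholipid synthesis, fell from 139 and 133 to 34.9 and 38.9 CPM. Fitted on the compared groups alone, 6 of the list rose.

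Mitochondrial genes rose. Of 28 TCA cycle genes, 25 rose and 1 fell (median 0.61), and after 3 hours 6 had risen and 5 fallen. The malate dehydrogenase gene mdh-2 rose from 97.5 and 87.4 to 447 and 387 CPM (2.16 ± 0.12), the succinate dehydrogenase genes sdha-1 and sdhb-1 from 80.5 and 87.1 to 258 and 261 CPM and from 92.7 and 83.4 to 223 and 209 CPM, and dlat-1, of the pyruvate dehydrogenase complex, from 73.9 and 78.8 to 188 and 178 CPM. The list's exception, sucg-1, named after its value was seen, fell by 0.82 on the log2 scale. Of 59 nuclear genes of the respiratory chain, 47 rose and 4 fell (median 0.59), and 11 rose at least 2-fold; with the length trend removed 48 rose. Of the 4 that fell, none did without refed sample 1 or without starved sample 1, and 1 did without refed sample 2. Their summed level was 7656 and 7016 CPM starved, 12770 and 12260 CPM refed, against 19150 and 19890 CPM in the fed mutant samples. The cytochrome bc1 core gene ucr-2.2 rose from 44.0 and 42.6 to 123 and 118.95 CPM and the cytochrome oxidase gene cox-6B from 73.5 and 58.9 to 176 and 164 CPM. Of the 12 protein-coding genes of the mitochondrial genome, 1 rose (WBGene00000829, from 1321 and 1352 to 2192 and 2160 CPM) and none fell, with a median of 0.06. In wild type 38 of the 59 nuclear genes rose and 5 fell, and 23 had a positive interaction and 4 a negative one.

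Glycolysis moved the other way: 10 of 19 genes fell and 1 rose (median -0.27), whereas in wild type 11 rose and 5 fell, and the interaction was negative for 11 and positive for 2. The summed level fell in both genotypes. It went from 7173 and 7168 to 5674 and 5274 CPM in wild type. In hlh-30(lf) worms it went from 5410 and 5295 to 4057 and 4026 CPM. The lactate dehydrogenase gene ldh-1 fell from 223 and 217 to 103 and 108 CPM, while in wild type its mean went from 33.3 to 118 CPM (interaction -3.11, adjusted p = 4.41e-16). The phosphoglycerate mutase gene ipgm-1 fell from 312 and 348 to 192 and 198 CPM, gpi-1, for glucose-6-phosphate isomerase, from 273 and 288 to 164 and 163 CPM, and gpd-3, for glyceraldehyde-3-phosphate dehydrogenase, from 775 and 725 to 484 and 487 CPM. The gene that rose, pyk-1, for pyruvate kinase, was named after its value was seen, changed by 0.25 and was not called without refed sample 1. Of 6 genes of gluconeogenesis and the glyoxylate shunt, which makes sugar from fat, none rose and 1 fell. The fall was that of the PEP carboxykinase gene pck-1 (-0.38 ± 0.08). With the length trend removed, 3 of the list rose and 1 fell. In wild type 4 rose and none fell, and the interaction was negative for 5. The shunt gene icl-1, chosen after its values were seen, was at 123 and 124 CPM starved and 324 and 211 CPM refed in hlh-30(lf) worms (1.1, adjusted p = 0.0527) and changed by 6.06 in wild type. Of 13 trehalose and glycogen genes, 5 rose and 3 fell: tps-2, for trehalose synthesis, rose from 52.8 and 68.0 to 156 and 155 CPM, the glycogen phosphorylase gene pygl-1 from 221 and 241 to 422 and 392 CPM, and the trehalase gene tre-3 fell from 141 and 150 to 51.5 and 52.5 CPM.

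Proteasome and chaperone genes rose, and the calls for the ribosome depended on the samples. Of 33 proteasome genes, 28 rose and 1 fell (median 0.62), 29 were already higher after 3 hours, and 1, the ATPase subunit gene rpt-1, rose at least 2-fold, from 44.0 and 40.5 to 98.8 and 94.3 CPM. The fall was that of rpn-6.2 (-0.51), which is scarce, at 2.35 and 2.3 CPM starved, was named after its value was seen and was not called when any of the 4 samples was left out. Of 26 chaperone genes of cytosol, endoplasmic reticulum and mitochondria, 16 rose and 1 fell (median 0.55); besides hsp-90, the calreticulin gene crt-1 rose from 730 and 581 to 1492 and 1507 CPM, and the fall was that of hsp-6, for mitochondrial Hsp70 (-0.66), also named after its value was seen. Of 80 cytosolic ribosomal protein genes, 36 rose and none fell, with a median of 0.34 and a range from -0.16 to 0.63; the summed level was 102200 and 82840 CPM starved and 121700 and 121400 CPM refed. The count was 10 without starved sample 2, 9 with the 100 most abundant genes left out, 48 with the length trend removed and 63 with library sizes alone. Leaving out the 100 most abundant genes also takes abundant members of this list out of the count. In wild type 76 rose and 1 fell, and the interaction was called for 1 gene in each direction. Of 68 mitochondrial ribosomal protein genes, 26 rose and 10 fell, with 16 rising without starved sample 2 and 5 falling without refed sample 1. Of 22 genes of ribosome biogenesis, 11 rose and 5 fell (3 without refed sample 1), among them the fibrillarin gene fib-1, from 84.5 and 72.4 to 188 and 211 CPM, and ncl-1, known as a repressor of rRNA synthesis, from 533 and 529 to 207 and 172 CPM. Of 32 aminoacyl-tRNA synthetase genes, 9 rose and 8 fell; the lysyl-tRNA synthetase gene kars-1 rose from 70.7 and 66.9 to 169 and 182 CPM and the cysteinyl-tRNA synthetase gene cars-1 fell from 271 and 288 to 103 and 108 CPM.

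Genes of the insulin pathway to DAF-16, which holds arrested larvae in their starved state, fell: 8 of 13 were lower and 1 was higher (median -0.56). The FOXO factor gene daf-16 fell from 748 and 787 to 356 and 330 CPM (-1.18 ± 0.09) and the kinase gene akt-1 from 316 and 327 to 129 and 126 CPM. The transcription factor gene pqm-1, which acts opposite to DAF-16, fell from 189 and 162 to 66.9 and 69.7 CPM, whereas the kinase gene sgk-1 rose from 17 and 19.5 to 40.8 and 44.4 CPM; without starved sample 2, 3 of the list rose. In wild type 3 rose and 2 fell, and the interaction was negative for 8 and positive for 1. Of 28 genes known to be raised by DAF-16, 9 rose and 8 fell. The manganese superoxide dismutase gene sod-3, a widely used reporter of DAF-16, fell from 46.5 and 44.3 to 3.06 and 2.99 CPM and the small heat shock gene hsp-12.3 from 25.6 and 28.8 to 2.03 and 1.41 CPM, while fat-5, a gene of the same list, rose. Of 8 superoxide dismutase and catalase genes, 3 rose and 4 fell; the extracellular enzyme's gene sod-4 fell from 205 and 182 to 38.8 and 41.8 CPM.

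Peptide signals rose. Of 39 insulin-like peptide genes, 16 rose and 2 fell, with a median of 0.26, or 0.20 with genes absent from a group set at their bound of 3 counts. The genes daf-28 and ins-5 rose from 51.7 and 50.6 to 134 and 146 CPM and from 4.00 and 3.83 to 19.9 and 19.2 CPM; daf-28 is known to be made in sensory neurons of well-fed larvae. The falls, named after their values were seen, were those of ins-12 (-3.65) and ins-29 (-1.44), and 4 genes fell without starved sample 2. Of 102 neuropeptide genes, 67 rose and 6 fell (median 0.47), with 3 falling without refed sample 1 and 2 without starved sample 1, and nlp-25 rose from 5.25 and 5.77 to 61.9 and 63.6 CPM. Markers of neurons showed smaller changes, with 3 of 7 higher and 1 lower (median 0.28) and a summed level of 3545 and 3532 CPM starved and 4429 and 4409 CPM refed; none was at 0, and their part in the neuropeptide result was not tested. The TGF-beta gene daf-7, which signals food from a pair of head neurons, rose from 195.7 and 189 to 413 and 454 CPM, and fed worms had 128 CPM. In its list, the dauer TGF-beta and dafachronic acid genes, 7 of 13 rose and 4 fell.

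Among genes of DNA replication and of the cell cycle, falls outnumbered rises in refed hlh-30(lf) worms. Of all 8992 genes at 10 CPM or more, 2906 rose and 3031 fell. The shares that fell in the DNA replication and cell cycle lists lay near this, and the shares that rose were smaller. Of 33 genes of DNA replication and nucleotide synthesis, 9 fell and 2 rose (median -0.10), with 4 falling without refed sample 2 and none at least 2-fold. In wild type 23 rose and none fell, and the interaction was negative for 22 and positive for 1. The starved genotypes lay farther apart than the refed ones. The summed level went from 504 and 485 to 725 and 665 CPM in wild type. In hlh-30(lf) worms it went from 817 and 802 to 787 and 740 CPM. The replication factor C gene rfc-4 fell from 23.7 and 22.9 to 15.2 and 15.2 CPM and the ribonucleotide reductase gene rnr-2 from 40 and 36.4 to 27.3 and 25.17 CPM, whereas tyms-1, for thymidylate synthase, rose from 8.73 and 7.71 to 16.3 and 14.7 CPM. Of 26 cell cycle genes, 10 fell and 3 rose (median -0.36, or -0.25 with absent genes at their bound). The CDK inhibitor gene cki-1, which keeps arrested larvae from dividing, fell from 134 and 104 to 27.8 and 27.9 CPM, towards the 16.7 CPM of fed worms. The cyclin D gene cyd-1, which acts the other way, fell too, from 56 and 52.5 to 36.9 and 33.2 CPM. Germline markers rose in 2 of 4 genes and their summed level went from 26.2 and 24.5 to 39.2 and 35.2 CPM, and neither call held without starved sample 2 (adjusted p = 0.0574 for glh-1 and 0.358 for glh-4), and that of glh-4 was lost with the replicate number as a block (0.0624); the part of the germline in these lists was not tested. Of 49 histone genes, 12 rose and 5 fell (median -0.06, or -0.02 with absent genes at their bound); without starved sample 2, 7 rose and 8 fell, and without refed sample 1, 3 fell. The H3.3 gene his-71 rose from 41.8 and 34.6 to 91.9 and 94.6 CPM.

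The cuticle and molting genes were the least repeatable. Among 20 cuticle collagen genes with mutant names, 2 rose (1 with the replicate number as a block) and 1 fell, with between 0 and 7 rising and between 0 and 2 falling when a sample was left out, and their summed level was 218 and 51.8 CPM in the starved and 150.6 and 20.3 CPM in the refed samples, against 2241 and 2576 CPM in the fed mutant samples. The hypodermal collagen gene dpy-7 was at 4.22 and 0.848 CPM starved and 14.4 and 0.249 CPM refed, and rol-6 at 1.0 and 1.31 CPM starved and 4.57 and 0.332 CPM refed. These collagens thus differed more between the samples of a group than between the groups. Of 154 collagen genes named col, 28 rose and 33 fell (median -0.30, or -0.14 with absent genes at their bound); col-176 rose from 141 and 155 to 1144 and 985 CPM and col-101 from 11 and 13 to 104 and 100.4 CPM, both above fed worms (36.8 and 4.74 CPM). Of 37 molting regulators and apical matrix genes, 5 rose and 9 fell (median 0.01); 8 rose without refed sample 2 and 8 without starved sample 2. The gene mlt-3 fell from 76.6 and 75.4 to 15.5 and 14.5 CPM, and mlt-10 rose from 3.35 and 2.22 to 10.9 and 10.5 CPM. Of 87 hedgehog-related and patched-related genes, 14 rose and 20 fell (median -0.21, or -0.12 at the bound); grd-5 fell from 17.3 and 17.3 to 3.57 and 2.74 CPM. Of 5 hypodermis markers, 3 fell and none rose, with lin-26, a factor of epithelial fate, falling from 236 and 242 to 86.9 and 100.2 CPM, and nhr-23 not called without refed sample 2 (adjusted p = 0.188); their summed level went from 447 and 447 to 272 and 252 CPM, none was at 0, and their part in the collagen and molting results was not tested. Among 8 heterochronic genes, which time the larval stages, 2 rose (1 without starved sample 1) and 4 fell; hbl-1 fell from 298 and 319 to 118 and 116 CPM and lin-28 from 153 and 148 to 112 and 122 CPM.

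Of the genes of defence, lectins and lysozymes rose and the chil and pals genes fell. Of 229 C-type lectin genes, 70 rose and 17 fell (median 0.35, or 0.26 at the bound); clec-4 rose from 4.88 and 4.82 to 70.0 and 82.5 CPM and clec-166 from 1.38 and 1.2 to 22.5 and 18 CPM. Of 95 genes for lysozymes, saposins and antimicrobial peptides, 31 rose and 9 fell (median 0.42, or 0.13 at the bound), with lys-1 rising from 73.3 and 60.1 to 469 and 522 CPM and ilys-5 from 0.782 and 0.465 to 11.3 and 11.06 CPM; with the length trend removed 14 fell. The 63 chil and pals genes, many of them known from the response to intracellular and oomycete pathogens, fell in 32 and rose in 11 cases (median -0.85, or -0.83 at the bound). Their summed level was 1669 and 1625 CPM starved and 420 and 457 CPM refed, against 152 and 150 CPM in the fed mutant samples and 371 and 352 CPM in starved wild type. After 3 hours of CeMM the sum was 4288 and 4358 CPM, and 32 of the genes were higher and 10 lower than in the starved samples. The gene pals-33 was at 143 and 134 CPM starved, 267 CPM on average after 3 hours and 10.62 and 12.9 CPM after 15 hours, and pals-9 at 14.7 and 10.9 CPM, 73.6 CPM, and 0.998 and 1.3 CPM. Of 19 CUB-like and dod genes, 9 rose and 4 fell.

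Detoxification genes moved both ways. Of 67 UDP-glucuronosyltransferase genes, 39 rose and 10 fell (median 0.97, or 0.94 at the bound), and after 3 hours 7 were higher and 20 lower. The gene ugt-47 rose from 1.16 and 0.875 to 12.16 and 12 CPM and ugt-17 from 3.72 and 4.65 to 34.7 and 36.2 CPM. Of 74 cytochrome P450 genes, 26 rose and 14 fell; cyp-37A1 rose from 5.0 and 5.47 to 38.7 and 36.8 CPM and cyp-43A1 fell from 98.7 and 98.5 to 15.7 and 14.8 CPM. Of 47 glutathione S-transferase genes, 17 rose (11 without starved sample 2) and 15 fell, with gst-15 falling from 31.2 and 29.3 to 5.99 and 7.08 CPM; the median was 0.15, or 0.00 at the bound. Of 48 ABC transporter genes, 21 rose and 12 fell, and pgp-6 rose from 38.2 and 59.4 to 221 and 282 CPM. Of 266 nuclear hormone receptor genes, 73 rose and 69 fell (median 0.03); nhr-57, known from hypoxia, fell from 171 and 223 to 24.0 and 26.2 CPM and nhr-115 from 45.8 and 44.6 to 3.80 and 3.57 CPM.

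Among nutrient uptake and cofactor genes, 15 of 31 peptide, amino acid and sugar transporter genes rose and 8 fell; besides pept-1, the sugar transporter genes swt-1 and swt-6 fell from 129 and 117 to 25.36 and 22.2 CPM and from 65.9 and 56.6 to 8.37 and 8.71 CPM. Of 19 heme and iron genes, 9 rose and 6 fell. The ferritin gene ftn-2 rose from 72.5 and 59.1 to 206 and 197 CPM, and hrg-1, for a transporter that brings heme out of the lysosome and that is known to rise when heme is scarce, fell from 61.3 and 58.4 to 16.9 and 19 CPM, while in wild type its mean went from 22.8 to 53.5 CPM (interaction -3.18, adjusted p = 1.52e-15). Of 17 methionine and one-carbon cycle genes, 6 rose and 5 fell: the methionine synthase gene metr-1 rose from 24.1 and 25.09 to 72.6 and 72.3 CPM, and mtrr-1, for its reductase, fell from 47.3 and 48.8 to 20.6 and 21.2 CPM. Of 11 propionate breakdown genes, 5 rose and 1 fell (3 rose and none fell without refed sample 2); the propionyl-CoA carboxylase genes pcca-1 and pccb-1 rose by 0.70 and 0.94. Of 30 muscle filament genes, 8 rose and 8 fell; the myosin gene myo-3 went from 1692 and 2673 to 962 and 976 CPM (-1.19 ± 0.18), and unc-54 from 5852 and 8501 to 8450 and 8064 CPM. The starved samples differed in these long genes in the direction of the trend with transcript length described above. They differed by more than its median log2 of -0.225 over the longest class, and the cause was not tested. The log2 fold change of unc-54 was 0.48 without starved sample 2. With the trend removed, unc-54 was called higher (0.16, adjusted p = 0.0209).

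Markers of adult stages were scarce, whereas 3 of the 8 markers of eggs and embryos averaged 10 CPM or more in the higher group. The summed level of 8 markers of oocytes and yolk was 7.51 and 9.77 CPM starved and 7.56 and 8.60 CPM refed, and that of 3 sperm markers 0.938 and 1.01 CPM starved and 2.57 and 2.16 CPM refed. For 8 markers of eggs and embryos, of which skn-1 is also used in the intestine of larvae, it was 722 and 809 CPM starved and 533 and 538 CPM refed, and for 4 dauer markers 58.9 and 51.1 CPM starved and 29.0 and 25.09 CPM refed. Of 5 markers of body wall muscle, 2 rose and 1 fell, and of 5 pharynx markers 1 rose and 2 fell. The call for the muscle marker unc-27 was lost without starved sample 2 (adjusted p = 0.0866), and that for the pharynx marker ceh-22 without either refed sample or starved sample 1 (between 0.122 and 0.157).

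The change over 15 hours of CeMM differed between the genotypes in 3135 genes with a positive and 3616 with a negative interaction. With library sizes alone in place of TMM factors these counts were 4104 and 2537, so that positive values made up 61.8% rather than 46.4% of the calls; the median interaction of genes of at least 10 CPM went from -0.12 to 0.09, and the values given here are relative to this shift. With the length trend removed the counts were 3867 and 3481, and 52.6% of the calls were positive. Refed wild-type sample 1 exceeded sample 2 by a median log2 of 0.03 over the shortest class of genes and 0.32 over the longest. Ribosomal RNA took 3.85% and 12.9% of counts in the refed wild-type samples. The largest positive interactions among named genes with counts in each group were those of dod-24 (6.30), gst-14 (6.09), txt-4 (5.99) and Y43C5A.3 (5.82). The gene dod-24, known from innate immunity, rose from 5.5 and 3.39 to 30.8 and 27.6 CPM in hlh-30(lf) worms, while its mean in wild type went from 23.8 to 1.68 CPM. Y43C5A.3 rose from 6.85 and 6.16 to 100.3 and 120 CPM, while its mean in wild type went from 254 to 66.2 CPM. In hlh-30(lf) worms txt-4 stayed scarce, at 0.250 and 0.192 CPM starved and 1.03 and 0.664 CPM refed, and its call in that genotype was lost without starved sample 2 (adjusted p = 0.0831); its mean in wild type went from 26.1 to 1.31 CPM. WBGene00044960, for which the interaction was also among the 5 largest, had 0 counts in both starved hlh-30(lf) samples and 0.129 and 0.138 CPM in the refed ones, against 10.2 and 1.99 CPM on average in starved and refed wild type.

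After lipl-3, and among genes called in the hlh-30(lf) comparison too that reached 10 CPM, the largest negative interactions were those of otpl-7 (-6.81), lon-1 (-6.70), F09C6.11 (-6.12), scl-24 (-5.76) and pitr-5 (-5.63). The gene lon-1, a regulator of body size downstream of TGF-beta, fell from 531 and 457 to 70.6 and 69.3 CPM in hlh-30(lf) worms, whereas its mean in wild type went from 2.68 to 34.2 CPM. F09C6.11 fell from 12.32 and 8.04 to 1.06 and 0.968 CPM, against means of 0.0840 and 0.517 CPM in wild type. The phosphate transporter-like gene pitr-5 fell from 14.9 and 11.79 to 2.35 and 2.24 CPM, against 0.431 and 3.2 CPM. The gene scl-24 rose in both genotypes, from 7.38 and 9.96 to 28.3 and 21.4 CPM in hlh-30(lf) worms and from a mean of 0.347 to 46.6 CPM in wild type; its rise in hlh-30(lf) worms was lost without refed sample 1 (adjusted p = 0.0533) or starved sample 1 (0.0657). For lon-1, F09C6.11 and pitr-5 the starved genotypes lay farther apart than the refed genotypes did. The glutamate dehydrogenase gene gdh-1 gave a further example of abundant transcripts that moved in opposite directions: its mean in wild type went from 7634 to 1061 CPM, and its interaction was 3.67 (adjusted p = 3.2e-19).

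**Figure D5:**
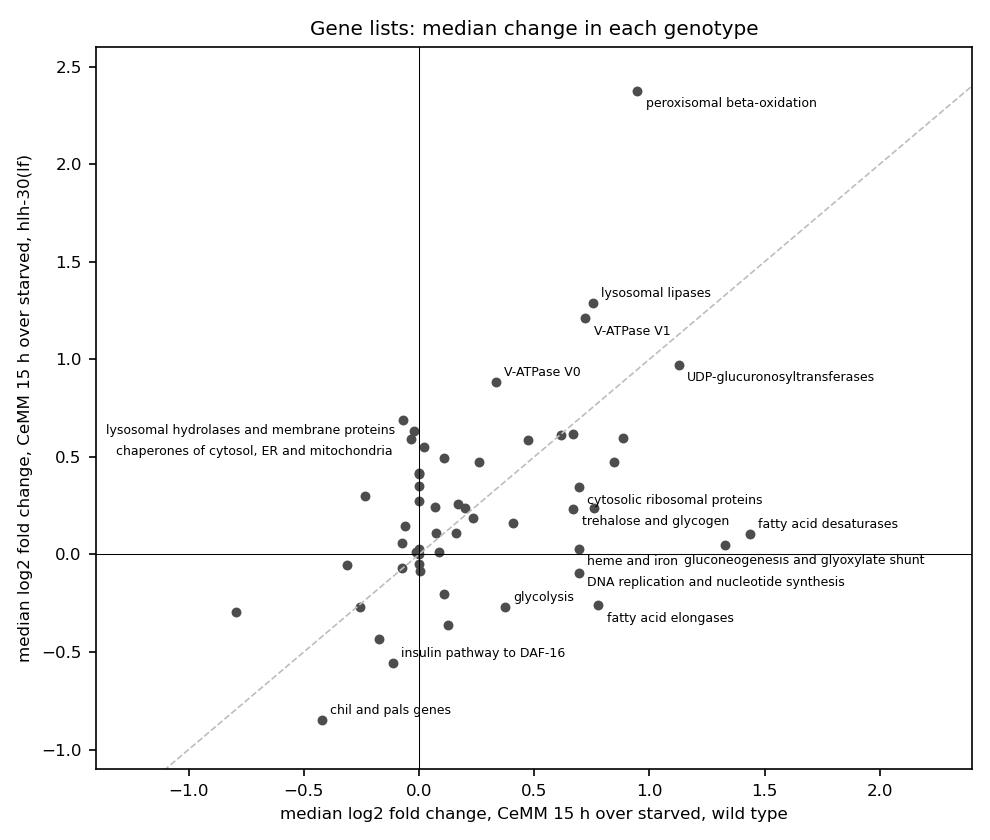
Median log2 fold change from starved to CeMM 15 h of each gene list in hlh-30(lf) worms (vertical axis) against that in wild-type worms (horizontal axis), 1 point per list; the dashed line marks equal medians. Peroxisomal beta-oxidation (2.38 against 0.95), both V-ATPase sectors and the lysosomal lipases lie above the line, and the elongases (-0.26 against 0.78), desaturases, gluconeogenesis and DNA replication lists lie below it.

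Several of the changes at 15 hours were absent or opposite at 3 hours of CeMM, measured against the same starved samples. The 3-hour samples had no higher or lower call for any of the 80 cytosolic ribosomal protein genes, and 2 higher and 2 lower calls among the 59 respiratory chain genes. None of the 8 lysosomal lipase genes was higher at 3 hours and 1 was lower, and cathepsin genes were higher in 4 and lower in 10 of 29 cases, with asp-1 at 189 CPM on average. Among the largest rises at 15 hours, acds-10 (85.2 CPM) and fat-5 (24.1 CPM) were already far above the starved samples at 3 hours, whereas scl-2 (2.04 CPM), F55G11.4 (1.25 CPM), clec-48 (0.306 CPM) and F42A10.6 (0.437 CPM) were not above them. Among the largest falls, ant-1.2 (3.67 CPM), nhx-6 (5.67 CPM), otpl-7 (1.24 CPM) and sod-5 (17.7 CPM) were already lower, F42C5.3 was at 311 CPM, and F09C6.13, at 13.6 CPM on average, was not called (adjusted p = 0.411).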

How the data were processed

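Total RNA of whole L1 worms was sequenced as single-end 50-nucleotide reads. Per the labels and the study's methods, the authors aligned the reads with STAR 2.0.4b to WBcel235 and counted uniquely aligned reads per gene with featureCounts; the strand setting is not given in the sources used here, so a gene and an overlapping or antisense neighbour may share reads. Each deposited file held raw counts per gene, CPM that the authors computed from the sample's total count, and RPKM that the authors computed from CPM and transcript length. Of 46726 genes listed, 30177 had at least 1 count in the 16 samples and were tested, and 27879 of these had a symbol.

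Counts were normalised with TMM factors and fitted with edgeR 4.0.16 (glmQLFit with legacy = FALSE and robust = TRUE, glmQLFTest; R 4.3.3) over all 16 samples with 1 coefficient per group, which pools the spread. The p-values were adjusted by Benjamini and Hochberg's method over all tested genes, and those up to 0.05 made a call. The interaction is the hlh-30(lf) change minus the wild-type change. The comparisons with wild type over 15 hours share no samples; those at 3 hours share the starved samples and that with fed worms the refed samples. Per the study's methods, replicates were biological, and each was run on its own occasion beside its controls; the labels number the samples without saying that a number marks such an occasion. Same-numbered starved and refed samples deviated together (correlations over 13529 genes of 0.238 in hlh-30(lf) and 0.138 in wild-type worms). The main fit has no block, as in the study, and values from a fit with the replicate number as a block are given where they change a call. Gene lists (55, of which the mitochondrial one was taken by chromosome) and members were chosen with earlier results of these data known. Genes were named by rule: the 10 largest rises and falls of at least 10 CPM without overlap, the 5 most abundant that rose and that fell at least 2-fold, the 5 largest interactions in each direction, hlh-30, nhr-31, the V-ATPase, lipase, desaturase and elongase genes, and up to 4 called genes of every other list; others are said to have been named after their values were seen. Medians "at the bound" set genes with 0 counts in a group at 3 counts. On counts simulated for the hlh-30(lf) comparison over 30177 genes, the test called 88 of 100 genes changed 2-fold and 98 of 100 changed 4-fold, and 5.58% of its calls were unchanged genes. The 200 changed genes were drawn only from genes above a minimum mean count, so the recovery of scarce genes was not tested. Far fewer genes were changed than were called in the data.

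Alternatives were RLE factors, library sizes alone, DESeq2 1.42.0, limma-voom (limma 3.58.1), the legacy edgeR test, filterByExpr, the compared groups alone, a replicate block, a 2-fold minimum, leaving out the 22 rRNA genes, the 100 most abundant genes or each sample in turn, and removal of the trend with transcript length. With a sample left out, the lone sample of its group is assumed to vary like the other groups.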

Additional observations from a re-analysis of the deposited data

Results flagged for a closer look

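The change over 15 hours of CeMM differed between the genotypes, by the interaction test, for 199 of the 304 genes named by rule. Of the 57 named for the size of the difference or as hlh-30, nhr-31, V-ATPase, lipase, desaturase and elongase genes, 45 passed, and the 43 of these with a count in each group and more than 3 counts in a sample of each genotype are given here as the hlh-30(lf) change minus the wild-type change on the log2 scale. Among the genes chosen for the size of this difference it was 6.30 for dod-24, 6.09 for gst-14, 5.99 for txt-4 and 5.82 for Y43C5A.3, and -6.81 for otpl-7, -6.70 for lon-1, -6.12 for F09C6.11, -5.76 for scl-24 and -5.63 for pitr-5. It was -0.88 for hlh-30 and -0.67 for nhr-31.

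In the V1 sector of the V-ATPase the difference was 0.38 for vha-11, 0.45 for vha-13, 0.70 for vha-14, 0.85 for vha-15, 0.44 for vha-8 and 0.87 for vha-9. In the V0 sector it was 0.97 for vha-2, 1.27 for vha-3, 0.46 for vha-4, 1.86 for vha-6, 0.51 for vha-16, 0.69 for vha-17 and 0.56 for vha-20, and it was negative for the subunit a genes vha-5 (-0.77) and vha-7 (-0.92). The lysosomal lipase genes lipl-2 (3.06), lipl-5 (1.14), lipl-6 (1.05) and lipl-7 (0.43) had positive values. The value of lipl-3 was negative (-7.06), with at most 2 counts in any hlh-30(lf) sample of the comparison. The call for lipl-6 was lost without refed hlh-30(lf) sample 1, starved hlh-30(lf) sample 1, refed wild-type sample 2 or starved wild-type sample 2 (adjusted p between 0.0538 and 0.135), and that for lipl-7 without refed hlh-30(lf) sample 1 (0.0773) or starved wild-type sample 1 (0.0518).

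The desaturase and elongase genes that differed all had a negative value, which compares changes and not levels. The values were -1.15 for fat-1, -1.32 for fat-2, -1.53 for fat-3, -1.36 for fat-4, -3.35 for fat-5 and -1.89 for fat-6. They were -1.84 for elo-1, -1.85 for elo-2, -0.95 for elo-3, -1.44 for elo-4, -4.44 for elo-5, -3.44 for elo-6 and -0.67 for elo-9; with library sizes alone, the last was not called (adjusted p = 0.096).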

How the results depend on the processing

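No named gene that was called changed direction under any alternative that was run. In 14 of 66 gene and marker lists the larger of the 2 counts, higher or lower, changed sides under at least 1 alternative. Without starved sample 2, histones went from 12 higher and 5 lower to 7 and 8, glutathione S-transferases from 17 and 15 to 11 and 14, and collagens with mutant names from 2 and 1 to 0 and 2. Without starved sample 1, lipid synthesis went from 10 and 9 to 7 and 9, nuclear hormone receptors from 73 and 69 to 66 and 67, aminoacyl-tRNA synthetases from 9 and 8 to 9 and 11, and collagens named col from 28 and 33 to 30 and 25; these collagens also changed sides without either refed sample (27 and 22, 28 and 22). Without refed sample 2, heme and iron genes went from 9 and 6 to 6 and 7 and molting genes from 5 and 9 to 8 and 6, and without refed sample 1, genes raised by DAF-16 went from 9 and 8 to 7 and 8. With DESeq2, the transferases were at 14 and 16 and the synthetases at 8 and 9. Small heat shock proteins went from 2 and 4 to 5 and 4 with the legacy test, and gluconeogenesis genes from 0 and 1 to 2 and 1 with filterByExpr. With the length trend removed, gluconeogenesis genes were at 3 and 1 and the transferases at 16 and 17. A 2-fold minimum left 0 higher and 1 lower of the mitochondrial ribosomal proteins and of the muscle markers. Requiring at least a 2-fold change left 2071 genes higher and 2077 lower in refed hlh-30(lf) worms, 1727 positive and 1869 negative interactions, and 6 autophagy genes lower, 11 respiratory chain genes higher, 1 proteasome gene higher and 0 DNA replication genes lower; that setting asks for more of the same test. Leaving out 1 sample gave 4080 to 4327 genes higher and 3520 to 4363 lower, 2630 to 3009 positive and 3114 to 3680 negative interactions, 8 to 14 autophagy genes lower and 4 to 10 DNA replication genes lower. Over the other alternatives the count of genes higher lay between 4125 (compared groups alone) and 4938 (legacy test), and that of genes lower between 4036 and 4983. Between 11 and 18 named fold changes lost their call when a sample was left out, most without starved sample 2, and 12 did with the compared groups alone; the cause was not tested.

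A fit with the replicate block called 4684 genes higher and 4512 lower, and in it 3111 interactions were positive and 3566 negative. Among named genes the block removed the calls for rrn-3.1 (adjusted p = 0.0515), glh-4 (0.0624) and spe-9 (0.0579), it moved 3 list counts by over 1.5 times (germline markers, sperm markers and collagens with mutant names, from 2 to 1 higher each), and it changed no other named call.

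With 31076031 to 36552665 counts per sample, changes of genes at a few counts, such as lipl-3 and elo-7, were not detectable.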
